A study of Mus musculus with 4 samples.

Results

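The genes described here carry glucose to pyruvate and on through the tricarboxylic acid (TCA) cycle. They were chosen by name, with earlier results of these data known. The 41 symbols have 4 roles, namely glucose and lactate transport (4), glycolysis (19), pyruvate dehydrogenase and its kinases (6) and the TCA cycle (12). A gene was taken from the probe sets (groups of probes for 1 transcript) that the platform annotation pairs with exactly 1 symbol, and probe sets of 1 gene were averaged. This found 39 of the 41 among 19935 genes in all, and no value is given for Gpi1 and Eno1. The RNA came from Ba/F3, a mouse pro-B line that depends on interleukin-3 (IL-3), a growth factor of early blood cells, and was measured on 4 Affymetrix whole-transcript arrays, 1 per sample. Cells made to express BCR-ABL, the fusion kinase of chronic myeloid leukaemia, from a doxycycline-inducible construct (500 ng/ml) were grown with IL-3 (1 array) or without IL-3 (2 arrays, A and B). They were compared with the parental line grown with IL-3 (1 array), for which no doxycycline is named. Serum-containing medium and logarithmic growth were common to all 4 samples. Whether A and B were separate cultures, and whether the BCR-ABL line is 1 clone, is not stated in the labels, so the spread behind the p-values is that of these samples alone and may be technical.

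In glycolysis, hexokinases trap glucose in the cell, phosphofructokinase sets the pace, and the pathway ends in pyruvate, which lactate dehydrogenase can turn into lactate. Pyruvate dehydrogenase instead converts pyruvate to acetyl-CoA for the TCA cycle in mitochondria, and pyruvate dehydrogenase kinases switch that enzyme off. Growth factor signals and oncogenic kinases are known to raise glucose uptake in blood cells, and hypoxia-inducible factor and MYC are known activators of many of these genes.

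Every value is a log2 difference from the parental array, which is 0 for all genes, so neither levels nor the presence of pro-B markers could be read. Over all genes the median was 0.0085 with IL-3, 0.0044 on A and -0.077 on B. The median absolute difference between A and B was 0.16 for the 39 genes and 0.13 for all genes. The precision is limited by the number of arrays. Cell type markers were compared between BCR-ABL cells without IL-3 and parental cells by the limma rule given below. That rule called 5.19% of all genes higher and 2.87% lower. Among 11 B cell markers Cd74 was higher (9.09%). Among 13 mast cell markers Cpa3 and Hdc were higher (15.4%) and Cma1, whose 1 probe set was dim on some array, was lower (7.69%). Lower too were 4 of 9 erythroid markers (44.4%), namely Klf1, Gfi1b, Epor and Hbb-y. Cebpe was lower among 13 neutrophil and monocyte markers (7.69%), and 0 of 9 T and NK cell markers were called. Cpa3 was at 2.85 on the IL-3 array, 2.84 on A and 3.24 on B, and Hbb-y at -2.39, -2.41 and -2.69 on the same arrays. With every array's median set to 0, limma's adjusted p was 0.0117 for Cd74, 0.00821 for Cpa3, 0.0886 for Hdc and 0.0537 for Cma1. The median difference without IL-3 was -0.056 for the B cell list, -0.11 for the mast cell list, -0.46 for the erythroid list, -0.0080 for the neutrophil and monocyte list and -0.12 for the T and NK cell list. The part of these differences in the results below was not tested. In bulk RNA, fewer cells of a type and less RNA per cell cannot be told apart.

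What the kinase drives in the absence of the growth factor was read from arrays A and B against the parental array. Of the 39 genes 3 rose, namely the hexokinase Hk3, the TCA cycle enzyme subunit Idh3a and the lactate and pyruvate carrier Slc16a1, and 1 fell, the pyruvate dehydrogenase kinase Pdk1. A gene was called when limma's p-value, adjusted over all 19935 genes, was under 0.05. By this rule 8.06% of all genes were called, 5.19% higher and 2.87% lower. The shares of the 39 were 7.69% and 2.56%, near those of all genes. An unadjusted limma p under 0.05 was more frequent among the 39, at 13 genes (33.3%) against 16.6% of all genes. By role these were 2 of 4 transporters, 4 of 17 glycolysis genes, 1 of 6 pyruvate dehydrogenase genes and 6 of 12 TCA cycle genes. The difference between these shares was not tested. A probe set dim on some array was present for 3 of the 39 genes, against 11139 of the 28815 probe sets in all. The 39 and all genes are thus unlike in signal, and the part of this in the shares was not tested. With the median of every array set to 0, Hk3 alone of the 4 kept its call (adjusted p = 0.0181), and 2.86% of all genes were called. The kinase, its inducer, the change of line and the missing IL-3 cannot be told apart in this comparison.

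**Figure D1:**
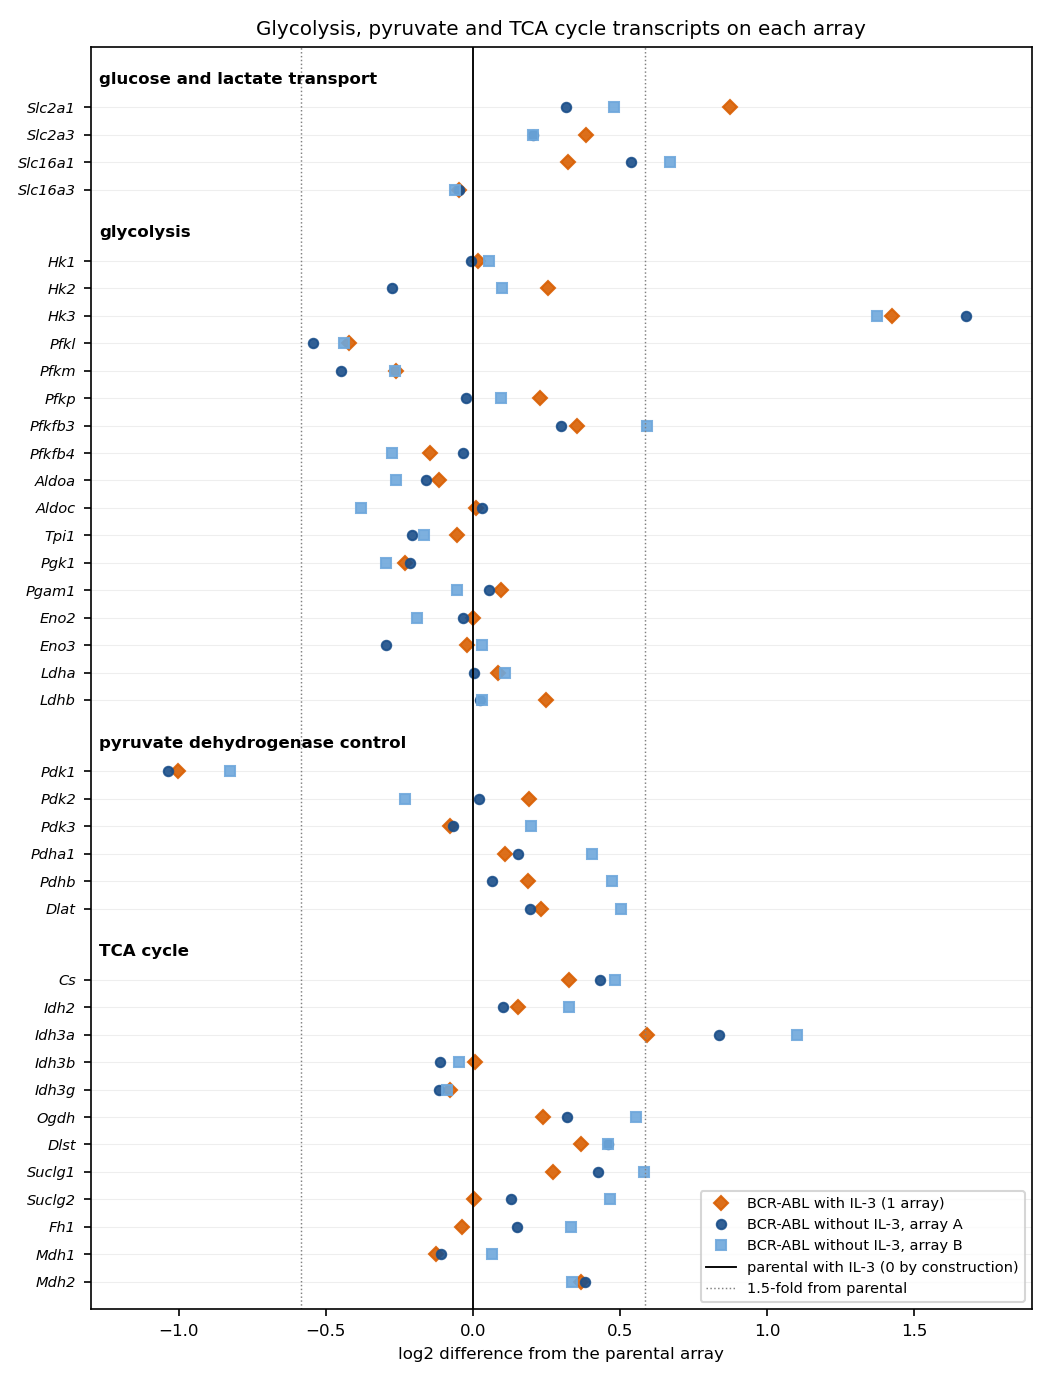
Each row is 1 gene and the horizontal axis is its log2 difference from the parental array, with diamonds for BCR-ABL with IL-3, circles for BCR-ABL without IL-3 on array A and squares for array B, and dotted lines at 1.5-fold. Hk3 lies far to the right on all 3 arrays (1.37 to 1.68), Pdk1 far to the left (-1.04 to -0.83), and most TCA cycle genes to the right of 0.

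Hk3, a hexokinase found mainly in myeloid cells, was at 1.42 with IL-3, 1.68 on A and 1.37 on B. All 3 BCR-ABL arrays lay at least 2.59-fold above the parental array. Without IL-3 it was 2.88-fold higher than in parental cells (log2 1.52, SE 0.17, limma adjusted p = 8.27e-06).

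Pdk1 encodes a kinase that inactivates pyruvate dehydrogenase. It was at -1.001 with IL-3, -1.04 on A and -0.83 on B, so that all BCR-ABL arrays were below the parental one. It was 1.91-fold lower without IL-3 than in parental cells (log2 -0.93, SE 0.16, limma adjusted p = 8.48e-04). After centring the difference was -0.90 and the adjusted p 0.0527.

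Idh3a is the catalytic subunit of the NAD-dependent isocitrate dehydrogenase of the TCA cycle. It was at 0.59 with IL-3, 0.84 on A and 1.10 on B, with the IL-3 array nearest to the parental level. Without IL-3 it was 1.96-fold higher than in parental cells (log2 0.97, SE 0.16, limma adjusted p = 7.35e-04, and 1.002 with adjusted p = 0.0515 after centring).

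Slc16a1 encodes MCT1, which carries lactate and pyruvate across the cell membrane. It was at 0.32 with IL-3, 0.54 on A and 0.67 on B, again lowest of the BCR-ABL arrays where IL-3 was present. It was 1.52-fold higher without IL-3 than in parental cells (log2 0.60, SE 0.16, limma adjusted p = 0.0197, and 0.64 with adjusted p = 0.0835 after centring).

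The 250 bases before the transcription start are shown for the genes with these calls and for Slc2a1. Slc2a1 was the highest of the 4 listed transporters on the IL-3 array. ACGTG and CACGTG were searched because hypoxia-inducible factor and MYC, whose sites include them, are known activators of the pathway. Other forms of these sites were not searched, so 0 matches does not mean that a window lacks a site. The sequences are from RefSeq (build GRCm38.p6), 5′ to 3′ on the strand of the gene, with ACGTG on either strand in capitals. The table has no entry for Idh3a, and for Pdk1 the first of 2 listed starts is shown. The windows are chr13:55021386-55021635 (minus strand) for Hk3, chr2:71872974-71873223 (plus) for Pdk1, chr3:104638414-104638663 (plus) for Slc16a1 and chr4:119108495-119108744 (plus) for Slc2a1.
Hk3: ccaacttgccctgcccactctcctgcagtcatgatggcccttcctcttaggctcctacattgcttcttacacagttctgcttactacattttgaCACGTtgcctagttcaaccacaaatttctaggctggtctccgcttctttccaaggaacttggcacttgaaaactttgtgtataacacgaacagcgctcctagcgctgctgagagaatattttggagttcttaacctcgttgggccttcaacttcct
Pdk1: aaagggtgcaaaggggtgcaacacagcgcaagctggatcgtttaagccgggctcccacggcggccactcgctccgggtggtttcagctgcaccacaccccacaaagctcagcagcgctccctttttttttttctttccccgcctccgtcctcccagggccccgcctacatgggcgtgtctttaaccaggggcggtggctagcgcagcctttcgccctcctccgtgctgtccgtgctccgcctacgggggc
Slc16a1: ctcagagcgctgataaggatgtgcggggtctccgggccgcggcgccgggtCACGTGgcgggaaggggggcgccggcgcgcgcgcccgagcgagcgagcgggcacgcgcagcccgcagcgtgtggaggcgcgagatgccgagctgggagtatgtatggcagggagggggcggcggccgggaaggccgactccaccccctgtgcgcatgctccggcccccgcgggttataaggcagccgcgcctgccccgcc
Slc2a1: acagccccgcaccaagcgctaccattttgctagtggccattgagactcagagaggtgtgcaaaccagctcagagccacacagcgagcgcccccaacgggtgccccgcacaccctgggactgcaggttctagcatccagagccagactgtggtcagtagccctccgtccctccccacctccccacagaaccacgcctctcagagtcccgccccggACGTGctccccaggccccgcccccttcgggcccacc
The window of Pdk1 holds 0 matches to ACGTG. That of Slc16a1 holds CACGTG, which matches on both strands, 200 bases before the start, and those of Hk3 and Slc2a1 hold 1 match each, 156 and 36 bases before it. Over the 37 genes with a promoter in the table, 17 (45.9%) had ACGTG on either strand in some window, against 3260 of 15561 genes compared (20.9%). The palindrome CACGTG, which always contains ACGTG, was present in 6 of the 37 (16.2%), against 8.12% of all genes compared. By role, ACGTG was present for 3 of 3 transporters, 8 of 17 glycolysis genes, 3 of 6 pyruvate dehydrogenase genes and 3 of 11 TCA cycle genes. A match is a string of letters and not a measured binding site, and no test was made of these shares.

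Of the 4 transporters, Slc16a1 was the 1 called gene, and the list's median was 0.30 without IL-3, against -0.038 for all genes. Slc2a1, which encodes the glucose transporter GLUT1, was at 0.88 with IL-3, 0.32 on A and 0.48 on B. The 3 arrays lay above the parental array, and the IL-3 array lay above both others. Without IL-3 the difference of Slc2a1 from parental cells was 0.40 (95% interval 0.068 to 0.73) and did not pass (limma adjusted p = 0.165). Slc2a3, the glucose transporter GLUT3, was at 0.39 with IL-3, 0.21 on A and 0.20 on B. Slc16a3, the lactate exporter MCT4, was at -0.048 with IL-3, -0.048 on A and -0.062 on B, the smallest differences of this list.

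Within glycolysis, Hk3 was the 1 called gene. The widely expressed hexokinase Hk1 was at 0.017 with IL-3, -0.0074 on A and 0.054 on B, the smallest mean difference of the list. Its 2 probe sets did not run together: 1 was at 0.11 with IL-3, -0.057 on A and -0.082 on B, and the other at -0.072, 0.043 and 0.19. Hk2, the growth-regulated hexokinase, was at 0.26 with IL-3, -0.28 on A and 0.097 on B, so that A and B lay on opposite sides of the parental array.

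The phosphofructokinase subunits differed among themselves. The liver-type subunit Pfkl was at -0.42 with IL-3, -0.55 on A and -0.44 on B, below the parental array on each. Its difference without IL-3 was -0.49 (95% interval -0.82 to -0.17) and missed the threshold (limma adjusted p = 0.0607). The muscle-type Pfkm was at -0.26 with IL-3, -0.45 on A and -0.26 on B. The platelet-type Pfkp was at 0.23 with IL-3, -0.024 on A and 0.096 on B, on both sides of the parental array. Pfkfb3, which makes an activator of phosphofructokinase, was at 0.35 with IL-3, 0.30 on A and 0.59 on B. The difference of Pfkfb3 without IL-3 was 0.44 (95% interval 0.099 to 0.79, limma adjusted p = 0.129). Its relative Pfkfb4 was at -0.15 with IL-3, -0.034 on A and -0.28 on B.

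Of the enzymes that act after phosphofructokinase 0 were called. Aldoa (aldolase), Tpi1 (triosephosphate isomerase) and Pgk1 (phosphoglycerate kinase) were below the parental array on all BCR-ABL arrays, with differences of -0.21, -0.19 and -0.26 without IL-3. Of the 3 probe sets of Pgk1, the first was at -0.25 with IL-3, -0.24 on A and -0.31 on B. Another gave the same values to 2 decimals, and the last was at -0.20, -0.17 and -0.27 on the same arrays. Aldoc, Eno2 and Eno3 were at -0.17, -0.11 and -0.13 without IL-3, and Pgam1 at 0.00057. The only probe set of Eno2 was dim on some array. Of the lactate dehydrogenase genes, Ldha had a difference of 0.055 (95% interval -0.27 to 0.38) without IL-3 and Ldhb one of 0.029 (95% interval -0.29 to 0.35). Over the 17 measured glycolysis genes the median was -0.11, with 4 genes above and 7 below the parental array on both A and B. The median was -0.053 with A left out and -0.034 with B left out. The background for these counts was 27.9% and 42% of all genes.

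Of pyruvate dehydrogenase and its kinases Pdk1 was the 1 called gene, and the median of the 6 was 0.17 without IL-3. It was 0.30 with A left out and 0.042 with B left out. Pdk2 was at 0.19 with IL-3, 0.020 on A and -0.23 on B, and Pdk3 at -0.079, -0.068 and 0.20 on the same arrays, so neither kept 1 side of the parental array. The only probe set of Pdk2 was dim on some array. The enzyme's own subunits were above the parental array on all BCR-ABL arrays without passing the test. Pdha1 (E1 alpha) was at 0.11 with IL-3, 0.15 on A and 0.40 on B. Pdhb (E1 beta) was at 0.19 with IL-3, 0.063 on A and 0.47 on B. Dlat, the E2 core, was at 0.23 with IL-3, 0.19 on A and 0.50 on B. On each of these 3 genes B was the highest array, and their differences without IL-3 were 0.28, 0.27 and 0.35 (limma adjusted p = 0.478, 0.573 and 0.304).

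The 12 listed TCA cycle genes were mostly above the parental level without IL-3, with Idh3a the 1 called gene and a median of 0.33. Both A and B were above the parental array for 9 genes (75.0%, background 27.9%) and below it for 2, Idh3b and Idh3g. Of 20 other measured TCA cycle and linked genes 8 were above and 6 below on both arrays, with a median of 0.012, and of 10 reference genes, commonly used as stable, 7 were above and 2 below. Sdha is in both of these lists. The succinate dehydrogenase subunits of the cycle, kept in the former list, differed by -0.23 (Sdha), 0.39 (Sdhb), 0.014 (Sdhc) and -0.13 (Sdhd) without IL-3. Citrate synthase, Cs, which starts the cycle, was at 0.33 with IL-3, 0.43 on A and 0.48 on B. Its difference without IL-3 was 0.46 (95% interval 0.14 to 0.78, limma adjusted p = 0.0827). Suclg1, the shared alpha subunit of succinyl-CoA ligase, came closest to a call among the others, at 0.27 with IL-3, 0.42 on A and 0.58 on B (difference 0.50 without IL-3, limma adjusted p = 0.0581).

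In the oxoglutarate dehydrogenase complex, Ogdh (E1) was at 0.24 with IL-3, 0.32 on A and 0.55 on B, and Dlst (E2) at 0.37, 0.46 and 0.46 on the same arrays. Dld, the E3 subunit it shares with pyruvate dehydrogenase, was at 0.44 with IL-3, 0.29 on A and 0.68 on B. These 3 genes had differences of 0.44, 0.46 and 0.48 without IL-3, and 0 of them passed (limma adjusted p = 0.126, 0.0815 and 0.113).

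Beside Idh3a with a difference of 0.97, the regulatory subunits Idh3b and Idh3g had differences of -0.079 (95% interval -0.40 to 0.24) and -0.10 (95% interval -0.42 to 0.22) without IL-3. Both intervals lie wholly below that of Idh3a, which spanned 0.63 to 1.31, although the difference between subunits was not itself tested. Idh2, the NADP-dependent mitochondrial enzyme, was at 0.15 with IL-3, 0.10 on A and 0.33 on B. Mdh2, the mitochondrial malate dehydrogenase, was at 0.37 with IL-3, 0.38 on A and 0.34 on B. Its cytosolic relative Mdh1 was at -0.13, -0.11 and 0.066 on the same arrays. The remaining genes, Suclg2 (the GTP-specific beta subunit of succinyl-CoA ligase) and fumarase Fh1, had differences of 0.30 and 0.24 without IL-3 and did not pass.

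**Figure D2:**
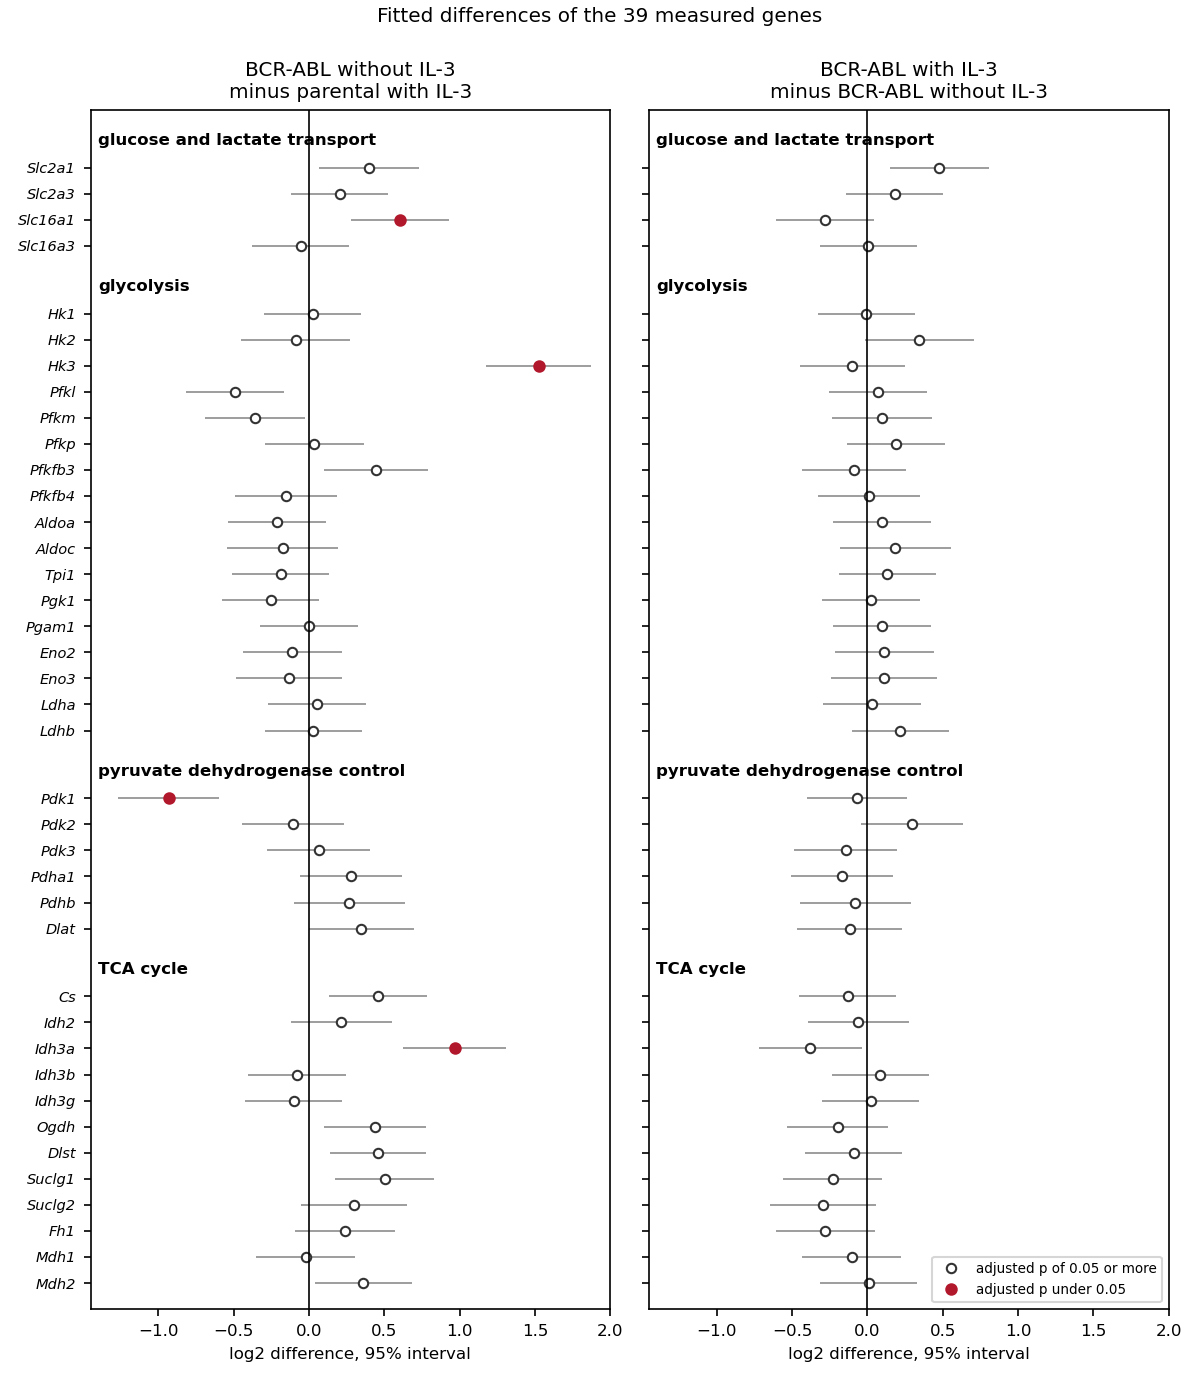
Points are fitted log2 differences and bars their 95% intervals from limma, for BCR-ABL without IL-3 minus parental (left, 2 arrays and 1 array) and for BCR-ABL with IL-3 minus BCR-ABL without IL-3 (right, 1 array and 2 arrays). Filled points have an adjusted p under 0.05: Slc16a1, Hk3, Pdk1 and Idh3a on the left, 0 genes on the right.

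What the growth factor adds to the kinase was read from the IL-3 array of the BCR-ABL line against arrays A and B of the same line. By limma, 0 of the 39 genes were called, where 0.00502% of all genes were, and 2 had an unadjusted p under 0.05 (5.13%, against 4.52% of all genes). These were Slc2a1, with a difference of 0.48 (95% interval 0.15 to 0.81, limma adjusted p = 0.748), and Idh3a, with a difference of -0.38 (95% interval -0.72 to -0.037, limma adjusted p = 1.000). Slc2a1 with IL-3 was 0.56 above A and 0.40 above B.

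By role, the IL-3 array lay above both A and B for 9 of 17 glycolysis genes and below both for 0. The corresponding shares of all genes were 39.9% and 25.5%. For the 12 TCA cycle genes it was above both for 2 and below both for 8, and for the 10 reference genes above both for 0 and below both for 8. The list medians were 0.095 for glycolysis, -0.12 for the TCA cycle, 0.094 for transport and -0.099 for pyruvate dehydrogenase and its kinases, against 0.034 for all genes. For pyruvate dehydrogenase and its kinases the sign rests on 1 array, with a median of -0.27 without A and 0.036 without B. The glycolysis median was 0.055 without B. Examples are Hk2 (0.34, 95% interval -0.016 to 0.71) and Ldhb (0.22, 95% interval -0.10 to 0.54) in glycolysis, and Suclg2 (-0.30, 95% interval -0.65 to 0.058) and Fh1 (-0.28, 95% interval -0.61 to 0.053) in the TCA cycle. For Ldhb the 2 probe sets differed on the IL-3 array, at 0.39 and 0.11, and the lower one was dim on some array. Slc16a1 was at -0.28 (95% interval -0.61 to 0.046) in this comparison, Hk3 at -0.10 (95% interval -0.45 to 0.25) and Pdk1 at -0.069 (95% interval -0.40 to 0.26). Arrays A and B enter both this comparison and the first one, with opposite signs.

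With IL-3 present in both, the BCR-ABL line and the parental line had 1 array each. This difference has no replicates of its own and is described by its size. The kinase, its inducer and the change of line cannot be told apart in it. Of the 39 genes 25 were above the parental array and 14 below it, against 52.6% and 47.4% of all genes. At least 1.5-fold higher were 3 of them and 1 was at least 1.5-fold lower, against 3.3% and 2.53% of all genes. The higher genes were Hk3 (2.68-fold), Slc2a1 (1.83-fold) and Idh3a (1.51-fold), and the lower one was Pdk1 (log2 -1.001). With the spread borrowed from A and B, as an alternative, limma's adjusted p was 1.25e-04 for Hk3, 0.00257 for Pdk1, 0.00674 for Slc2a1 and 0.0977 for Idh3a. Slc16a1 was 1.25-fold higher. The medians were 0.35 for transporters, 0.011 for glycolysis, 0.15 for pyruvate dehydrogenase and its kinases and 0.20 for the TCA cycle, against 0.0085 for all genes. The parental array is shared with the first comparison.

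Neighbouring pathways were read from lists of textbook members, of which the called genes are named or, where a list had 0, the pair with the largest absolute difference. Of 21 other measured genes of glycolysis and gluconeogenesis 2 rose without IL-3 (9.52%, against 5.19% of all genes) and 0 fell (against 2.87%). The called genes were Pcx, pyruvate carboxylase, which feeds the TCA cycle (difference 0.59, limma adjusted p = 0.0209), and Tigar, a regulator of glycolysis (0.56, adjusted p = 0.0302). Pkm, pyruvate kinase, is named here outside that rule, having been chosen after its values were seen. It was at -0.031 with IL-3, -0.23 on A and -0.23 on B. Of 10 other transporters 1 was called (10%), namely Slc2a6, a glucose transporter relative, which rose 2.02-fold (limma adjusted p = 4.79e-04). It was at 1.22 with IL-3, 1.15 on A and 0.88 on B, above the parental array on all 3. Of 6 further genes of pyruvate dehydrogenase and its control 0 were called, and 2 had an unadjusted limma p under 0.05 (33.3%, against 16.6% of all genes). The pair named are Dld, given above, and the regulator Pdpr, with a difference of -0.41 (limma adjusted p = 0.145).

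Among 20 other measured TCA cycle and linked genes 2 rose and 2 fell in BCR-ABL cells without IL-3. These are 10% each way, against 5.19% and 2.87% of all genes. Got1, the cytosolic aspartate aminotransferase, was at 1.44 with IL-3, 1.32 on A and 1.51 on B, and was 2.67-fold higher without IL-3 than in parental cells (limma adjusted p = 1.09e-05). Sdhaf1, an assembly factor of succinate dehydrogenase, had a difference of 0.76 (limma adjusted p = 0.00470). Idh1, the cytosolic NADP-dependent isocitrate dehydrogenase, was at -1.22 with IL-3, -0.95 on A and -0.43 on B (1.61-fold lower without IL-3, limma adjusted p = 0.0278). Me2, a mitochondrial malic enzyme, was at -0.77 with IL-3, -0.81 on A and -0.54 on B (difference -0.68 without IL-3, limma adjusted p = 0.0125). In the pentose phosphate pathway 1 of 7 genes was called (14.3%), Taldo1 (transaldolase), which was 1.73-fold lower (limma adjusted p = 0.00271).

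Of 21 measured genes of the hypoxia response, many of which share an activator with glycolysis genes, 0 rose and 3 fell without IL-3, against 5.19% and 2.87% of all genes. The called genes were Ankrd37 (2.38-fold lower, limma adjusted p = 1.45e-04), Ndrg1 (1.85-fold lower, adjusted p = 0.0111) and the histone demethylase Kdm3a (1.66-fold lower, adjusted p = 0.0196). Ndrg1 was at 0.019 with IL-3, -0.54 on A and -1.23 on B. With IL-3 the array lay above both A and B for 15 of the 21 genes and below both for 0, where 39.9% and 25.5% of all genes did. In that comparison 0 of the 21 were called, and 5 had an unadjusted limma p under 0.05 (23.8%, against 4.52% of all genes). The list's median was -0.17 for cells without IL-3 against parental cells and 0.26 for the addition of IL-3. A and B enter these comparisons with opposite signs, so an error in A or B would move the medians in opposite directions. After centring, the called genes of these lists with an adjusted p under 0.05 were Slc2a6 and Got1. Of the 10 reference genes Gusb was called higher (0.58, limma adjusted p = 0.0228), and their medians were 0.11 and -0.10 in these comparisons.

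**Figure D3:**
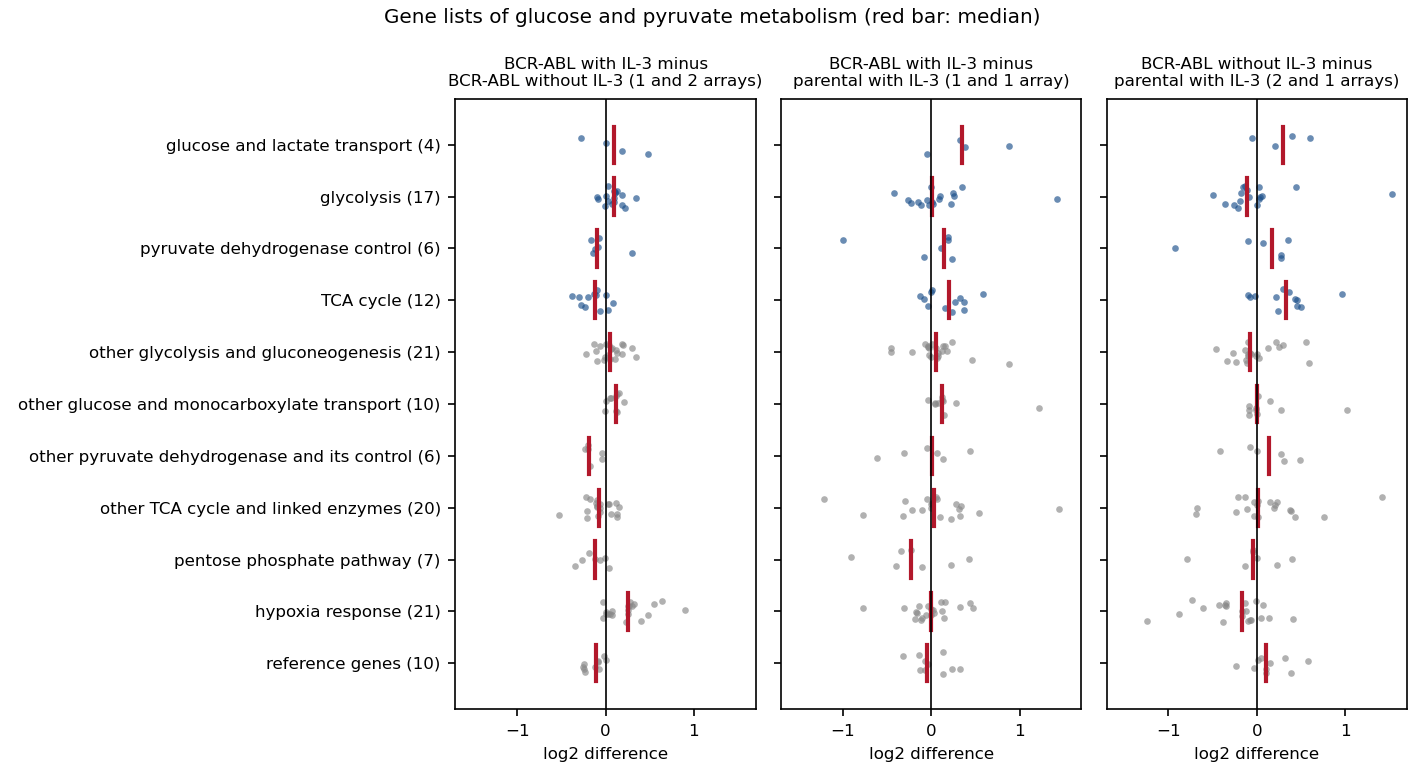
Each point is 1 gene, placed by its log2 difference in the comparison named above each panel, with the number of measured genes in brackets, blue for the lists of the 39 genes, grey for other lists and a red bar at the median. The TCA cycle median is 0.33 without IL-3 against parental cells and -0.12 for the addition of IL-3, while that of glycolysis is -0.11 (-0.053 without A, -0.034 without B) and 0.095. A and B enter these comparisons with opposite signs.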

How the data were processed

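Labelled cDNA of 4 Ba/F3 samples was hybridised to Affymetrix arrays, per the labels' protocols. Each deposited value is a difference of log2 signals, sample minus parental, since the parental column is 0 for all 28815 probe sets. Background correction, normalization, summarisation and the base of the logarithm are not given in the sources used here. Base 2 was inferred from the values, 99.7% of which are whole multiples, within 0.15 of the step, of 2 raised to -21, the spacing of stored log2 signals between 4 and 8. A probe set with an odd multiple was taken as dim on some array. The platform annotation gave 1 symbol for 21780 probe sets, several for 1605 and did not list 5430. Averaging left 19935 genes.

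A linear model per gene, with a mean for each of the 3 groups, was fitted to the 4 arrays in limma 3.58.1 (R 4.3.3), with two-sided tests, Benjamini-Hochberg adjustment over all genes and a threshold of 0.05. The spread rests on A and B alone and lone arrays are assumed to vary like them (prior 16.4 degrees of freedom, SD 0.128). BCR-ABL with IL-3 against parental, 1 array each, was described by a 1.5-fold limit, with the limma test on the spread of A and B as an alternative. The genes and lists were chosen with earlier results of these data known. The naming rule took called genes, genes 1.5-fold from the parental array on any array and, per role, the largest and smallest mean difference; the other members are also given. Lists have counts and medians and no set test. Promoter windows were matched by gene identifier.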

Additional observations from a re-analysis of the deposited data

How the results depend on the processing

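Direction was kept for Hk3, Pdk1, Idh3a, Slc16a1, Slc2a1 and Pfkfb3 against parental cells under every alternative run. Centring each array on its median reduced the called genes of the 39 to 1 (Hk3), against 4, and those of all genes to 570, against 1607, with a prior of 4.21 degrees of freedom in place of 16.4. At an adjusted p under 0.1, 8 of the 39 were called, the added ones being Pfkl, Suclg1, Dlst and Cs. For the addition of IL-3 the calls over all genes were 0 after centring and 2 at a threshold of 0.1, against 1, and those of the 39 stayed 0. With a 2-fold limit 2 genes, Hk3 and Pdk1, differed between the single arrays of BCR-ABL with IL-3 and parental cells, against 4. Under limma with the borrowed spread of A and B 3 passed there. Centring changed the 3 lost differences little (Pdk1 to -0.90, Idh3a to 1.002, Slc16a1 to 0.64). After centring, the glycolysis median without IL-3 was -0.080 and the transporter median for the addition of IL-3 was 0.059. With A or B left out the glycolysis median without IL-3 ranged from -0.053 to -0.034, that of pyruvate dehydrogenase and its kinases from 0.042 to 0.30, and the median of these genes for the addition of IL-3 from -0.27 to 0.036, a change of sign. Leaving out A or B leaves no residual degree of freedom, so calls could not be recomputed. The other alternatives, a fit of only the groups compared (the same by construction), robust moderation, the median of probe sets and leaving out dim probe sets, left the count of called genes among the 39 at 4. No paired analysis was possible because 1 group alone has more than 1 array.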
